A study of Rattus norvegicus with 14 samples.

Results

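The genital tubercle transcription factors described here are 8 genes, Tbx2, Tbx3, Tbx4, Tbx5, Isl1, Six4, Sall1 and Runx1, chosen by name. All 8 were on the array, each with 1 probe set carrying 1 gene symbol, among 14497 genes tested. Their values come from foreskin of Sprague Dawley rat pups on postnatal day 5, measured on Affymetrix Gene 1.0 ST arrays in 14 samples. The flutamide group held 7 litters whose mothers received 5 mg/kg/day of flutamide, an antiandrogen drug that blocks the androgen receptor, by gavage daily from gestational day 16 to day 20. The corn oil group held 7 litters whose mothers received the vehicle, corn oil, over the same days, and each sample pooled 2 foreskins of 1 litter. Values are on the log2 scale, and the litter was the replicate.

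The genital tubercle is the embryonic outgrowth that becomes the penis or the clitoris, and the prepuce, or foreskin, forms from the skin and mesenchyme around it. Its early growth needs no androgen, whereas androgen in late gestation drives its male form. Transcription factors of this tissue bind DNA and set which cells grow, adhere or differentiate, and many of them also shape the limb bud. T-box factors share a DNA-binding domain of that name. Tbx2 and Tbx3 are close paralogues that act mainly as repressors, and Tbx4 and Tbx5 are close paralogues known for their part in the outgrowth of the hindlimb and forelimb.

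Tbx3 was the member with the largest difference between the groups, and none of the 8 passed the test. The test was limma's moderated test across all 14497 genes, with Benjamini-Hochberg adjustment and a threshold of 0.05. By that test 0.0069% of all genes, or 1 gene, were called, against 0 of the 8 members. At an unadjusted limma p under 0.05 there was 1 of the 8 members, Tbx3, where 9.16% of all genes lay under it. The differences of the 8, flutamide minus corn oil, ran from -0.10 to 0.22 on the log2 scale with a median of 0.03, beside a median of 0.0048 over all genes tested. Of the members, 5 stood above 0 and 3 below it, while 52.3% of all genes stood above 0. All 8 had 95% confidence intervals within 1.3-fold in either direction, the widest ends being 0.843-fold and 1.27-fold. RMA, the method that made these values, shrinks the differences of dim probe sets, so the intervals hold for array values.

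**Figure D1:**
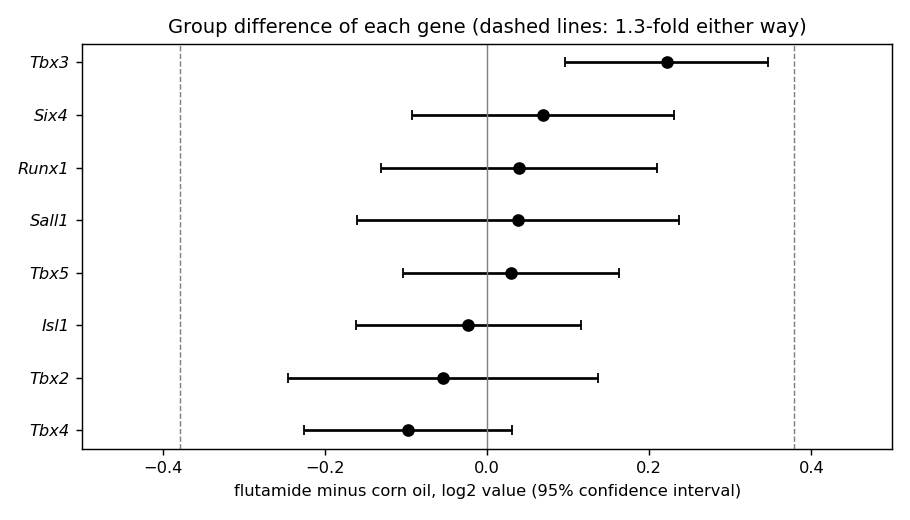
Difference of each gene, flutamide minus corn oil, on the log2 scale, with limma's 95% confidence interval (7 litters in each group). The dashed lines mark 1.3-fold in either direction. The interval of Tbx3 lies above 0, from 0.10 to 0.35, and the other 7 intervals include 0.

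Tbx3 encodes the T-box repressor whose loss in humans causes ulnar-mammary syndrome, which affects the arm, the breast and the genitals. Its log2 values in flutamide litters were 6.001 at the lowest, 6.11 at the median and 6.16 at the highest, against 5.68, 5.89 and 6.08 in corn oil litters. All 7 flutamide litters lay above the corn oil median, and 5 of them lay above every corn oil litter. The overlap came from corn oil replicate 1 alone, since the next highest corn oil litter, at 5.92, lay below all 7 flutamide litters. The mean was 6.09 ± 0.06 in flutamide and 5.87 ± 0.12 in corn oil litters (SD, n = 7 each). The groups differed by 0.22 (SE 0.06), or 1.17-fold, with a limma p of 0.00154 and an adjusted p of 0.304, so it did not pass. Its unadjusted exact permutation p, two-sided over all divisions of the litters into 7 and 7, was 0.00175, where 0.000583 is the smallest this design allows. By limma's p it stood at place 70 among the 14497 genes. In bulk tissue, fewer cells of a type and less RNA per cell cannot be told apart, and this holds for each value given here.

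Tbx2, the closest paralogue of Tbx3 and likewise a repressor, overlapped between the groups and did not pass. Its log2 values in flutamide litters ran from 5.52 through a median of 5.86 to 6.10, against 5.60, 5.94 and 6.10 in corn oil litters. Both groups covered nearly the same range, and 3 of 7 flutamide litters lay above the corn oil median. The difference was -0.05 (SE 0.09; 95% confidence interval -0.25 to 0.14; limma adjusted p = 0.901). Litters of the same group differed more for Tbx2 than for most genes, with a spread within groups of 0.19, at percentile 81.7 of all genes tested. The same spread was 0.10 for Tbx3, at percentile 16.4.

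Tbx4, which takes part in hindlimb outgrowth and is also active in genital mesenchyme, had the lowest difference of the 8. The RefSeq promoter windows of Tbx4 and Isl1 in the GRCr8 build are shown because Tbx4 had the largest difference, and Isl1 the brightest probe set, among the members with a window. Each window runs from 250 bases before the annotated start to 50 bases after it, and 5 of the 8 members, Tbx4, Tbx5, Isl1, Six4 and Runx1, matched an entry by gene number. The windows were searched on both strands for AGAACA, the half-site of androgen and glucocorticoid receptors, and for GGTGTG, the core of the T-box motif. The capitals mark a match to GGTGTG on the minus strand, 12 bases before the start of Tbx4.
Tbx4, chr10:71228306-71228605, plus strand: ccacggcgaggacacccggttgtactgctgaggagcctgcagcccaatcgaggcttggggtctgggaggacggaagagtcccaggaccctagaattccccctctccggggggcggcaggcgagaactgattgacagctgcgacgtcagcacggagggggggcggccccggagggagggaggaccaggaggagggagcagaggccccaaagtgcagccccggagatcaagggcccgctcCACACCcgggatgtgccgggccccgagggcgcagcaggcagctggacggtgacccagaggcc
Isl1, chr2:49823393-49823692, minus strand: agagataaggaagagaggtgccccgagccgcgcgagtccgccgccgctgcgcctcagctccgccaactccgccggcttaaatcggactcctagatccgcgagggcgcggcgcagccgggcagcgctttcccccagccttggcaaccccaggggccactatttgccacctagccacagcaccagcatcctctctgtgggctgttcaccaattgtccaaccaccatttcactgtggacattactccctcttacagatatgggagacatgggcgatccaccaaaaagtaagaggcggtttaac
None of the 5 windows held AGAACA, which 20.7% of all 33469 windows held. GGTGTG was found in 1 of the 5, that of Tbx4, and in 17.9% of all windows. The GC content was 70.0% for Tbx4, 60.3% for Isl1, 57.7% for Six4, 56.0% for Tbx5 and 34.3% for Runx1. Its median over all windows was 51.7%, and the shares of all windows were not matched for it. Tbx2, Tbx3 and Sall1 had no window to search. A match is a description of these letters and not a bound site.

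The Tbx4 log2 values in flutamide litters were 6.57 at the lowest, 6.75 at the median and 6.93 at the highest, against 6.75, 6.81 and 6.93 in corn oil litters. Only 1 of the 7 flutamide litters, replicate 6, lay above the corn oil median, and the groups overlapped. The mean was 6.73 ± 0.13 in flutamide and 6.83 ± 0.07 in corn oil litters (SD, n = 7 each). The difference was -0.10 (SE 0.06; 95% confidence interval -0.23 to 0.03), with a limma adjusted p of 0.660 and an unadjusted exact permutation p of 0.105.

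Tbx5, known for starting the forelimb and for forming the heart, differed by 0.03 (SE 0.06; 95% confidence interval -0.10 to 0.16; limma adjusted p = 0.927). Its log2 values ran from 5.95 through 6.07 to 6.34 in flutamide litters, against 6.005, 6.06 and 6.20 in corn oil litters. Flutamide litters held both the lowest and the highest value, in replicates 4 and 6. Without replicate 6 the difference was -0.0064, so its direction rested on that litter.

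Isl1 encodes a LIM homeodomain factor of early genital, hindlimb and heart mesenchyme, and also of motor neurons. Its log2 values were 7.40 at the lowest, 7.54 at the median and 7.76 at the highest in flutamide litters, against 7.46, 7.60 and 7.72 in corn oil litters. The groups overlapped, and 3 of 7 flutamide litters lay above the corn oil median. The difference was -0.02 (SE 0.07), with a 95% confidence interval from -0.16 to 0.12 and a limma adjusted p of 0.948, the highest of the 8.

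Six4, a homeodomain factor of the sine oculis family that works with EYA cofactors in muscle and urogenital development, had 1 litter far from the rest. Its log2 values in flutamide litters were 5.51 at the lowest, 5.64 at the median and 6.12 at the highest, against 5.54, 5.68 and 5.74 in corn oil litters. The highest value belonged to flutamide replicate 7, and the other 6 flutamide litters lay at 5.73 or below, within or close to the corn oil range. The difference was 0.07 (SE 0.08; 95% confidence interval -0.09 to 0.23; limma adjusted p = 0.829), and 0.0004 without that litter. Flutamide replicate 7 also had the lowest SD of values over genes of all arrays, 1.48, where the other 13 arrays lay between 1.518 and 1.6001. With each array's SD as covariate the Six4 difference was 0.0081 (limma adjusted p = 0.985). The part of this array spread in the Six4 value of that litter was not tested further.

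Sall1, a zinc finger repressor whose mutation in humans causes Townes-Brocks syndrome with anal, limb and genital defects, had the dimmest probe set of the 8. Its log2 values ran from 4.57 through 4.91 to 5.10 in flutamide litters, against 4.53, 4.86 and 5.01 in corn oil litters. Both groups covered nearly the same range, and the spread within groups, 0.20, was at percentile 85.2 of all genes tested. The difference was 0.04 (SE 0.09; 95% confidence interval -0.16 to 0.24; limma adjusted p = 0.940).

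Runx1, the RUNX factor of blood formation that is also active in hair follicle epithelium, differed by 0.04 (SE 0.08; 95% confidence interval -0.13 to 0.21; limma adjusted p = 0.924). Its log2 values were 6.55, 6.74 and 6.92 at the lowest, median and highest in flutamide litters, against 6.36, 6.73 and 6.97 in corn oil litters. Corn oil litters held both extremes, in replicates 4 and 5, so every flutamide litter lay inside the corn oil range.

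**Figure D2:**
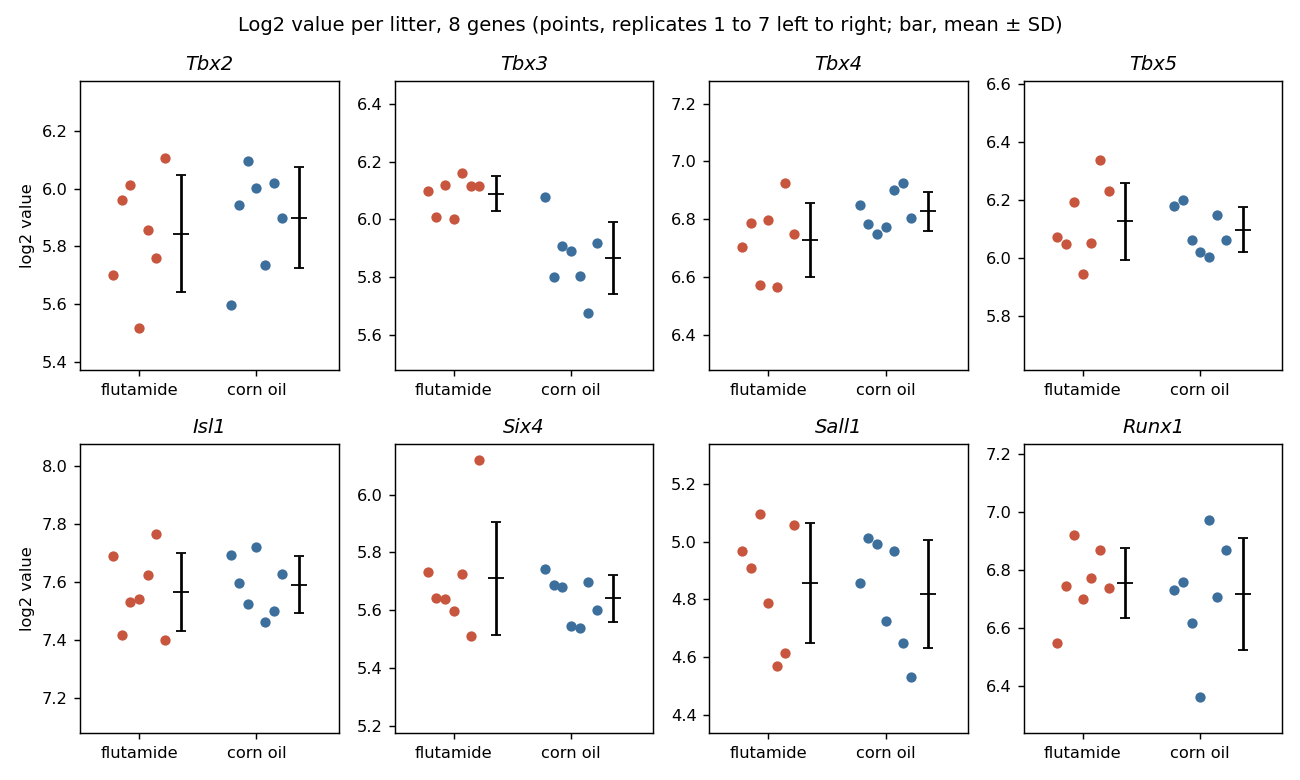
Log2 value of each of the 8 genes in every litter, flutamide on the left and corn oil on the right of each panel, with replicates 1 to 7 from left to right; the bar is the mean ± SD of 7 litters. Each axis spans 1 unit on the log2 scale around the gene's own mean. Tbx3 points separate except for corn oil replicate 1, and Six4 shows the single high point of flutamide replicate 7 at 6.12.

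The probe sets of the 8 genes spanned much of the brightness of the array. Mean log2 values over all 14 samples were 7.58 for Isl1, 6.78 for Tbx4, 6.74 for Runx1, 6.11 for Tbx5, 5.98 for Tbx3, 5.87 for Tbx2, 5.68 for Six4 and 4.84 for Sall1. In the order of all 14497 genes by mean value, Isl1 stood at percentile 87.0, Tbx4 at 73.9, Runx1 at 73.1 and Sall1 at 20.8. The median gene had 5.89, close to Tbx2 and Tbx3. Probes differ in how strongly they bind, and no detection calls were used, so this order is one of probe set brightness and not of transcript number. The whole range over the 14 samples was small for each gene, from 0.36 for Tbx4 and Isl1 to 0.61 for Six4 and Runx1, over both groups.

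In the GRCr8 gene table Tbx2 lies next to Tbx4 and Tbx5 next to Tbx3, with no protein-coding gene between them, so the 4 T-box genes form 2 pairs of neighbours. The difference between 2 members within each sample was compared between the groups for 4 pairs, picked after the values had been seen. Tbx3 minus its neighbour Tbx5 averaged -0.04 ± 0.11 in flutamide and -0.23 ± 0.15 in corn oil litters (SD, n = 7 each). The groups differed in this by 0.19 (95% confidence interval 0.04 to 0.34), with an exact permutation p of 0.0146 and of 0.0584 after adjustment over the 4 pairs. Tbx3 minus its paralogue Tbx2 averaged 0.24 ± 0.19 in flutamide and -0.03 ± 0.26 in corn oil litters (SD, n = 7 each). That difference was 0.28 (95% confidence interval 0.01 to 0.54; exact permutation p = 0.0443, adjusted 0.0886). Neither passed, nor did Tbx5 minus Tbx4, at 0.13 (exact permutation p = 0.0979, adjusted 0.131), or Tbx2 minus Tbx4, at 0.04 (exact permutation p = 0.741, adjusted 0.741). With 1 litter at a time omitted, 3 of the 56 values had an adjusted exact permutation p under 0.05. Of these, 2 left out corn oil replicate 1, the litter highest for Tbx3 in its group (0.0234 for Tbx3 minus Tbx5 and 0.0233 for Tbx3 minus Tbx2), and 1 left out flutamide replicate 6 (0.00932 for Tbx3 minus Tbx5). As the pairs were picked after the Tbx3 values had been seen, these values are no support for a difference.

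No pair among the 8 genes passed a test of varying together from litter to litter. With group means removed, Pearson's r over the 14 samples ran from -0.47 to 0.49 among the 28 pairs, with a median of 0.002 and 14 pairs above 0. The highest was that of Tbx3 with Isl1 (r = 0.49, rho = 0.38), with permutation p of 0.05002 for r and 0.182 for rho, adjusted over 28 pairs 0.744 and 0.742. It was 0.41 without the 2 litters farthest from the Tbx3 median, corn oil replicates 1 and 6. The lowest was that of Isl1 with Sall1 (r = -0.47, rho = -0.51; permutation p = 0.114 and 0.0895, adjusted 0.744 and 0.742), which was -0.26 without flutamide replicates 6 and 7. For the closest paralogues r was -0.18 (rho = 0.002) for Tbx2 with Tbx3 and 0.25 (rho = 0.03) for Tbx4 with Tbx5, and neither kept its sign without 2 litters. Tbx2 with Tbx3 came to 0.003 with flutamide replicate 4 and corn oil replicate 1 omitted, and Tbx4 with Tbx5 to -0.28 without flutamide replicates 5 and 6. Neighbours gave -0.35 for Tbx2 with Tbx4 and 0.22 for Tbx3 with Tbx5.

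**Figure D3:**
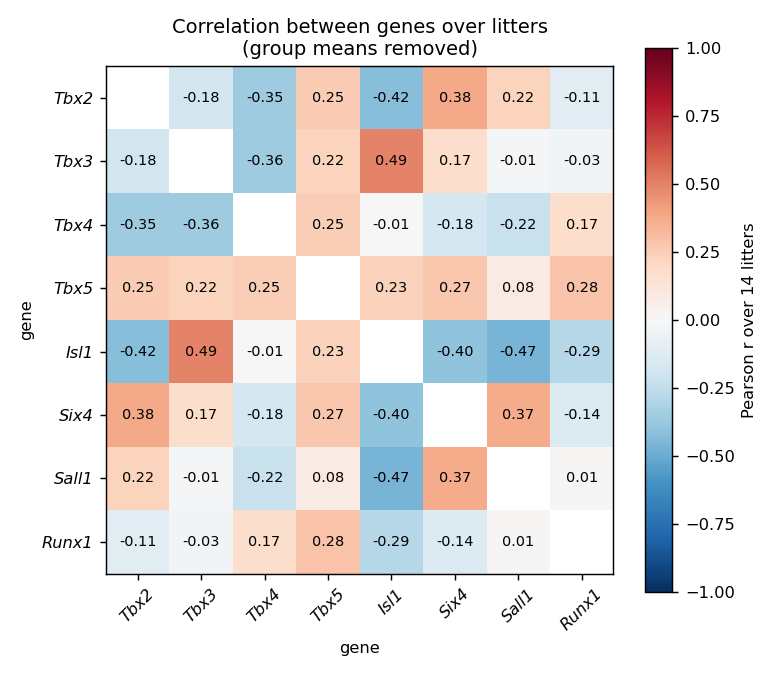
Pearson's r for each pair of the 8 genes over 14 litters after group means were removed; red is positive, blue negative, and each cell gives r. The highest value is 0.49 for Tbx3 with Isl1 and the lowest -0.47 for Isl1 with Sall1.

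For each member, the other genes whose values followed it most closely over the 14 litters were found by Pearson's r with group means removed, as a description over 14496 candidate genes. For Isl1 these were Ddx5, an RNA helicase (r = 0.90, rho = 0.92), Ncoa3, a coactivator of nuclear receptors (r = 0.88), and Uri1 (r = 0.87). For Tbx2 they were Mlnr and Cdh16, both at r = 0.93, and Slc19a1, a folate transporter, at 0.92. For Tbx3 they were Cd164 (r = 0.86), Gngt2 (r = 0.86) and Cd34, a surface marker of endothelial and blood stem cells (r = 0.85), and these fell to between 0.47 and 0.52 without corn oil replicates 1 and 6. Runx1 was followed by Tmem205 (r = 0.89), Perp, a desmosome gene of stratified epithelium (r = 0.89), and Slc22a20 (r = 0.87). Tbx4 was followed by Vom2r50, Kif3c and Cdc16 (r = 0.86, 0.86 and 0.85), and Tbx5 by Klhl14, Or2ab1 and Habp4 (r = 0.83, 0.81 and 0.80). Without flutamide replicates 4 and 6 the values for Tbx5 were 0.65, 0.71 and 0.64. Six4 was followed by Me3, Gnmt and Brsk2 (r = 0.91, 0.90 and 0.89), which fell to 0.55, 0.77 and 0.66 without flutamide replicates 6 and 7. Sall1 was followed by Pcdhb21, Fblim1 and Cd40 (r = 0.87, 0.86 and 0.85). For comparison, 5% of all genes had an r above 0.46 to 0.56 with a given member. Some of the named genes had dim probe sets, with Vom2r50 at percentile 0.566 by mean value, Or2ab1 at 13.2, Mlnr at 16.1 and Gnmt at 19.4. Others were bright, such as Perp at 99.8 and Ddx5 at 98.4.

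Relatives of the 8 genes within their families gave no call either. Of the other T-box genes, 8 of 13 listed were measured, 4 with higher and 4 with lower values in flutamide litters, with a median difference of 0.007. Tbx22, a factor of palate formation, differed by -0.19 (SE 0.09; limma adjusted p = 0.572), Tbx6 by 0.09 (SE 0.06) and Tbx19 by 0.14 (SE 0.12). The network of sine oculis homologues with their EYA and DACH cofactors had 4 of 11 measured, 2 above and 2 below 0, among them Six3 at 0.09, Eya2, one of those cofactors, at -0.09 and Six6 at -0.03. Of the SALL family, Sall3 differed by 0.13 (SE 0.09) and Sall2 by 0.05 (SE 0.08), and Sall4 was not analysed here. The RUNX list had 5 of 6 measured, 3 above and 2 below 0. Runx2, the factor of bone formation, differed by 0.21 (SE 0.09; limma adjusted p = 0.512), Runx3 by 0.03 and their shared partner Cbfb by -0.02. The LIM list had 16 of 17 measured, 10 above and 6 below 0, with a median of 0.02. Its smallest p-values belonged to Lhx8 at 0.24 (SE 0.08; limma adjusted p = 0.363), Isl2, the paralogue of Isl1, at 0.19 (SE 0.08; limma adjusted p = 0.481), and Lmo1 at 0.08.

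Other genes of genital tubercle patterning differed in both directions around 0. Of 34 listed further transcription factors 21 were measured, 11 above and 10 below 0, with a median of 0.01 and none called. The 3 smallest p-values were those of Hoxd13, a Hox factor of digits and external genitalia, at 0.28, Msx2, a homeobox gene of epithelial appendages, at -0.18, and Prrx1, a homeobox gene of limb mesenchyme, at -0.16, with limma adjusted p of 0.304, 0.348 and 0.509. Of 27 listed signals 24 were measured, 13 above and 11 below 0, again with none called. Dkk2, a secreted Wnt inhibitor, differed by -0.22 (SE 0.09; limma adjusted p = 0.490), Wnt5a, a ligand that drives outgrowth of limb and genital buds, by 0.16 (SE 0.07; limma adjusted p = 0.516), and Efnb2, an ephrin of urethral closure, by -0.14 (SE 0.07; limma adjusted p = 0.559). Of 18 genes listed as reported targets of the members 17 were measured, 7 above and 10 below 0, with Wnt5a, Gdnf at 0.19 (SE 0.09) and Bmp4 at 0.11 (SE 0.06) having the smallest p-values. Over all these lists, with shared genes counted once, 93 genes were measured and none passed.

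**Figure D4:**
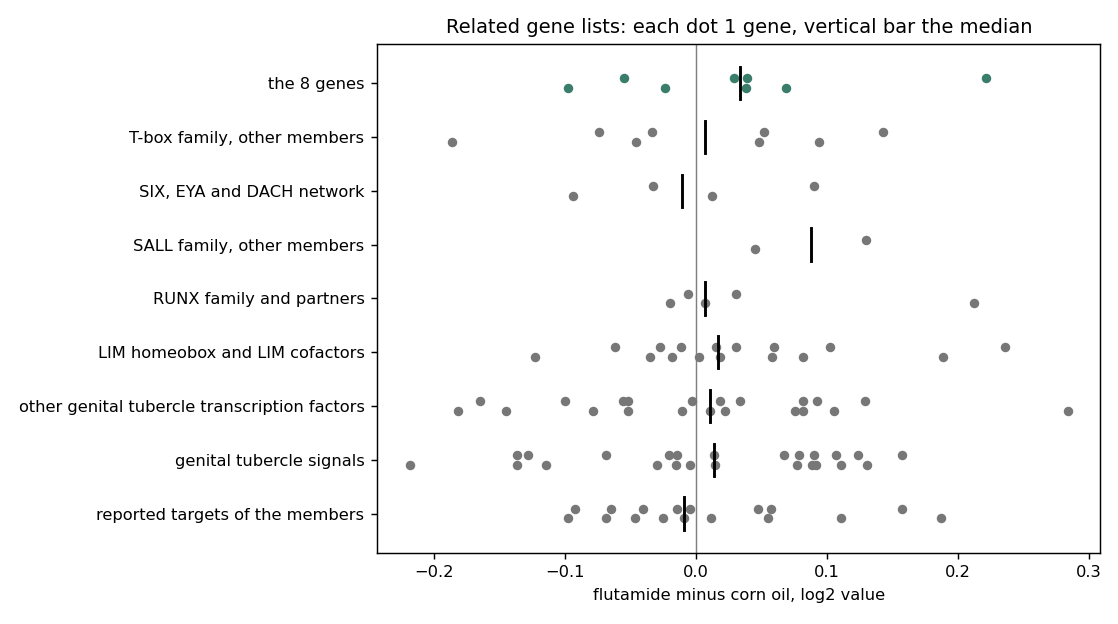
Difference of each gene, flutamide minus corn oil, on the log2 scale, for the 8 genes (top, green) and for 8 lists of relatives, partners, signals and reported targets (grey); the vertical bar is the median of the list. The medians lie between -0.01 and 0.09, and the outermost points are Hoxd13 at 0.28 and Dkk2 at -0.22.

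The samples carried the markers of skin with its mesenchyme. Mesenchyme markers were bright, led by Dcn at 11.1 and Lum at 9.70, and so were keratinocyte markers, led by Krt10 at 12.3 and Krt1 at 11.9, while the 6 neuronal markers averaged 4.90 in flutamide and 4.92 in corn oil litters. No marker was called between groups. The 6 smooth muscle markers averaged from 6.94 to 7.26 in flutamide and from 7.08 to 7.43 in corn oil litters, a difference of -0.22. Single smooth muscle markers differed unevenly, by -0.39 to -0.09. The 4 measured hair follicle markers of 6 averaged from 7.17 to 7.50 in flutamide and from 7.24 to 7.72 in corn oil litters, a difference of -0.20. Single hair follicle markers differed by -0.30 to -0.11. For the 5 measured skeletal muscle markers of 6 the difference of the means was -0.14, with single markers from -0.22 to -0.05. The 5 adipocyte markers averaged from 5.11 to 5.29 in flutamide and from 5.28 to 5.57 in corn oil litters, a difference of -0.16. They did not share it evenly: Fabp4 differed by -0.43, Lpl by -0.20, Cidec by -0.18, Plin1 by -0.03 and Adipoq by 0.02. In the other direction, the 2 measured melanocyte markers of 4 averaged from 4.21 to 4.66 in flutamide and from 4.14 to 4.34 in corn oil litters, a difference of 0.17. With group means removed, Tbx3 had r = 0.14 (rho = 0.05) with the smooth muscle mean, r = -0.13 (rho = 0.12) with the hair follicle mean, r = 0.41 (rho = -0.03) with the adipocyte mean and r = 0.25 (rho = 0.41) with the melanocyte mean over the 14 litters. The permutation p for r was 0.684, 0.687, 0.220 and 0.254, and the adjusted p over the 128 relations between members and marker lists was at least 0.730. Without the 2 litters farthest from the median of each list's mean r was -0.04, 0.06, -0.16 and 0.34, so the sign of the first 3 rested on those litters, which were flutamide replicate 1 and corn oil replicate 1 for the adipocyte mean. The part of cell makeup in the Tbx3 difference was not tested further.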

How the data were processed

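Foreskin RNA of 7 flutamide and 7 corn oil litters was measured, 1 array per litter. The authors deposited log2 values, 28826 probe sets by 14 samples, made with RMA per the submitters' processing notes, with no version stated there. The number of arrays limits the precision.

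Probe sets were named from GEO's platform annotation, updated by gene number through the RefSeq table of GRCr8. Those with 1 symbol were kept, 15209, and the brightest per gene was used, giving 14497 genes. The comparison used lmFit and eBayes of limma 3.58.1 (R 4.3.3), two-sided and adjusted over all genes. The fit was tested on simulated data for the sign and size of larger planted changes. That check did not require a change of any size to be called, including changes as small as those of the members. Correlations used 100000 permutations within groups.

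The members and lists were chosen with earlier results of these data known. Named genes were the members, up to 3 genes per list by p-value, the 3 closest genes per member, up to 2 bright markers per list and all adipocyte markers. Promoters are RefSeq's. The alternatives were other scalings, filters, summaries and variance models, and litters left out. Pairs within samples and relations to marker lists were added after seeing the data. Replicate numbers are shared by the groups but mark no stated pairing, and deviations of same-numbered samples correlated from -0.07 to 0.15, over 0.1 in 1 of 7 pairs.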

Additional observations from a re-analysis of the deposited data

Results flagged for a closer look

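Of the 16 groups of litters examined for the 8 genes, 1 held a value far from the others, where about 1 in 20 such groups is marked with no effect. The Six4 value of 6.12 in flutamide replicate 7 lay above the next highest flutamide litter, at 5.73, and the gap was 0.635 of the range of its group.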

How the results depend on the processing

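Under the 24 alternatives none of the 8 members and none of the 93 list genes was called. Tbx2, Tbx3, Tbx4 and Six4 kept their sign in all 24, with Tbx3 between 0.19 and 0.26 (limma adjusted p from 0.274 to 0.501) and Tbx4 between -0.13 and -0.07. For Six4 the sign held only barely, from 0.0687 as reported to 0.0004 without flutamide replicate 7 and 0.0081 with each array's SD as covariate. Six4 was 0.0175 without both corn oil replicate 1 and flutamide replicate 7, and 0.1017 without flutamide replicate 6. Tbx2 lay between -0.1048 without corn oil replicate 1 and -0.0002 without flutamide replicate 4. It was -0.1213 with each array's SD as covariate, and -0.1481 without both corn oil replicate 1 and flutamide replicate 7. The Isl1 difference became 0.0003 after quantile normalisation, 0.0262 with each array's SD as covariate, 0.0218 without both corn oil replicate 1 and flutamide replicate 7, and lay between -0.0564 and 0.0043 when 1 litter at a time was omitted. Sall1 became -0.0074 with the SD covariate and lay between -0.0094 and 0.0862 with 1 litter omitted. Likewise Tbx5 lay between -0.0064 and 0.0592, Runx1 between -0.0201 and 0.0821, and the group difference of Tbx2 minus Tbx4 between -0.011 and 0.1088. Sall1 has no value with the dimmest genes left out. The cause of these changes of sign was not tested. The count of genes called over the whole table, 1, was 2 with a trend and robust variance, 2 with the SD covariate, 0 without both corn oil replicate 1 and flutamide replicate 7, and 0 or 1 with 1 litter omitted. With the replicate block it was 0, Tbx3 had a limma adjusted p of 0.291 and no member's call changed. Of 56 alternative values of r for pairs of members, 12 moved by 0.2 or more. Without detection calls or signal over background, how far dim probe sets such as that of Sall1 could show a change is not known.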

Other observations

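Over the 128 relations between the 8 genes and 16 marker lists, with group means removed, none passed after adjustment and 9 had an unadjusted permutation p under 0.05. With no relation at all, a share of about 0.05 would lie under it. The relations share genes and lists, so the 9 are not independent. The smallest was Tbx2 with the urothelium list (r = 0.75, rho = 0.75; permutation p = 0.00336 and 0.00483, adjusted 0.430 and 0.556), and it fell to 0.64 once corn oil replicate 1 and flutamide replicate 3 were left out. Corn oil replicate 1 was the lowest of its group for Tbx2 and had the highest SD of values over genes, 1.6001. Flutamide replicate 7 was the highest of its group for Tbx2 and had the lowest SD, 1.48. The part of array spread in this relation was not tested. Tbx4 followed the suprabasal and cornified epidermis list in the opposite direction (r = -0.74, rho = -0.71; permutation p = 0.00707 and 0.0091, adjusted 0.432 and 0.556), at -0.53 without flutamide replicates 3 and 6.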
